A study of Mus musculus with 6 samples.

Results

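The replication-dependent histone genes of the mouse were taken as the protein-coding genes whose symbol in the GENCODE M21 annotation begins with Hist1h, Hist2h, Hist3h or Hist4h. These were 67 of the 55487 genes in the deposited count table. They comprise 6 genes of the linker histone H1 and, for the core histones, 18 of H2A, 18 of H2B, 12 of H3 and 13 of H4. By locus, 54 are Hist1 genes on chromosome 13, 10 are Hist2 genes on chromosome 3, 2 are Hist3 genes on chromosome 11 and 1 is a Hist4 gene on chromosome 6. RNA was measured by bulk sequencing in megakaryocyte-erythroid progenitors, the precursors of platelets and red cells, obtained by sorting the marrow of C57BL/6 mice, wild type and 8 weeks old. The mice were either untreated controls or fasted for 6 h, with 3 libraries of each, and the study asked what fasting does to the formation of red cells. The labels name no transgene and do not say whether a library came from 1 mouse or from several, so p-values measure only the spread between these libraries.

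Replication-dependent histone genes supply the histone proteins that package newly made DNA, and a cell makes their mRNAs mainly in S phase. Most of these mRNAs end in a conserved stem-loop, bound by the protein Slbp, in place of a poly(A) tail, and they are degraded quickly when DNA synthesis stops. Some members, Hist1h1c and Hist1h2bc among them, are also known to give polyadenylated transcripts from longer gene models in cells that have left the cycle. The libraries were made from RNA bound to oligo(dT) beads, per the labels, and such beads bind poly(A) tails, so the values are levels in poly(A)-selected RNA rather than of all histone mRNA.

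The stem-loop sequences show where a member's mRNA would end in its tail-less form. The motif searched was GG, 2 bases of any kind, CTTTT, 1 base of any kind, AG, 2 bases of any kind and CC, on the sense strand of the M21 transcripts and after the stop codon. It was present in 44 of the 67 members, from 21 to 58 bases after the stop codon, with a median of 31. Over all 21951 protein-coding genes, 78 held these letters in a transcript (0.355%), the 44 members included. The 44 copies fell into 6 sequences: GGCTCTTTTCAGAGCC in 26 members, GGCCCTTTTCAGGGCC in 7, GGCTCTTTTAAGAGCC in 6, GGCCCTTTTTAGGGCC in 2, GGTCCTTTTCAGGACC in 2 and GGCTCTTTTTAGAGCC in 1. One member with each sequence is shown, together with 2 more whose counts are described further on. Each is written 5′ to 3′ on the strand of the gene, with the stem-loop in capitals and 5 flanking bases in lower case on either side.
Hist1h1c: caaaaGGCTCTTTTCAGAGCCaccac
Hist1h2ao: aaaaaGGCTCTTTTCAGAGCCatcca
Hist1h1d: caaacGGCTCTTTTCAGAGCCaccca
Hist1h4h: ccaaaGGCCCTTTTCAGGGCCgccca
Hist1h3e: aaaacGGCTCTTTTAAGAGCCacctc
Hist1h4i: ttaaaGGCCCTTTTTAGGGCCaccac
Hist1h4j: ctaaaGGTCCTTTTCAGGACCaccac
Hist2h2ac: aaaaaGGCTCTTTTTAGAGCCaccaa

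In GRCm38 the capitals lie in the 3′ UTR at chr13:23739512-23739527 (plus strand) for Hist1h1c, at chr13:21810898-21810913 (plus) for Hist1h2ao, at chr13:23555787-23555802 (plus) for Hist1h1d and at chr13:23531458-23531473 (plus) for Hist1h4h. They lie at chr13:23561903-23561918 (minus strand) for Hist1h3e, at chr13:22040966-22040981 (minus) for Hist1h4i, at chr13:21735437-21735452 (plus) for Hist1h4j and at chr3:96220418-96220433 (minus) for Hist2h2ac. Both 3′ ends occur among the gene models. In 22 of the 44 members the model ran more than 100 bases past the stem-loop, as in Hist1h1c, where it continued for 840 bases, and in Hist1h1d, where it continued for 4884. In the other 22 it ended within 100 bases, as in Hist1h2ao, 31 bases after the stem-loop. Hist1h2bc, the member with most counts, had 742 bases after its stop codon and no match to the motif in them. For 13 members the model stopped at the stop codon and so held no bases in which to look. AATAAA or ATTAAA, the usual poly(A) signals, stood in the last 50 bases of the model in 17 members.

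Total gene counts were 30246110, 26323940 and 22445970 in control libraries 1 to 3 and 12797144, 18225191 and 14882835 in fasted libraries 1 to 3. CPM values here are counts-per-million of these totals. Counts over 1466 odorant and vomeronasal receptor genes, which these cells are not known to use, served as the background; it was 0.297 to 0.655 CPM per kb of exon in controls and 0.878 to 1.11 in fasted libraries, so it was higher in every fasted library. All 10 markers of megakaryocyte-erythroid progenitors were counted in every library. They summed to 4236, 3870 and 2255 CPM in controls 1 to 3 and to 3214, 3477 and 4589 CPM in fasted libraries 1 to 3. Control 3 thus had the lowest sum of all libraries. The 11 granulocyte and monocyte markers summed to 3298, 10721 and 16278 CPM in controls 1 to 3 and to 1291 to 3839 in fasted libraries, and the 10 B and T cell markers to 250 to 325 and 203 to 468 CPM; none of these 31 markers was at 0 in all libraries. Control 1 differed from the other controls in 3 ways. Its background was the lowest of all libraries, and its granulocyte and monocyte sum was the lowest of the controls. Also, 6 long RNAs that carry no poly(A) tail, 7SK and 7SL RNA among them, summed to 0.926 CPM there. Their sum was 14.7 to 34.5 CPM in the other 5 libraries. In granulocyte and monocyte markers, however, control 1 lay inside the fasted range. The other controls, at 10721 and 16278 CPM, lay above every fasted library and above their own progenitor marker sums. Values without control 1 are given beside the class sums, ratios and counts of histone genes called. For the medians and calls of other gene lists they are given only in the fit over all tested genes. Such values compare the fasted libraries only with controls high in granulocyte and monocyte markers, whose part in the differences was not tested.

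Histone mRNA was a small and uneven part of these libraries. Of the 67 members, 62 had a count in at least 1 library, 56 passed the filter on low counts, and 30 had a mean count of at least 5 times the background for their length. A further 11 lay between 3 and 5 times the background and 14 lay below it. Just inside the limit of 5 was Hist2h2ac, at 5.31 times the background, and just outside was Hist1h3g, at 4.82 times. The 14 lowest included Hist1h1t, Hist1h2aa and Hist1h2ba, histone genes of the testis, at 0.938, 0.251 and 0.382 times the background. The 30 members were 3 of H1, 8 of H2A, 9 of H2B, 4 of H3 and 6 of H4.

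**Figure D1:**
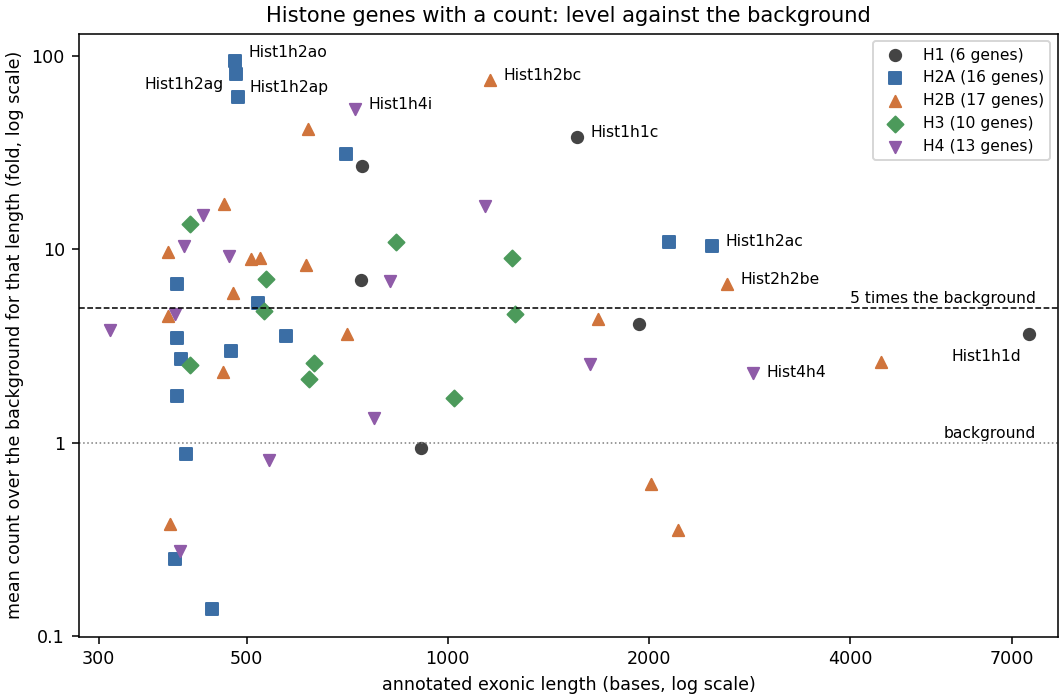
Mean count over 6 libraries divided by the background for the gene's length (y axis, fold, log scale) against annotated exonic length (x axis, bases, log scale) for the 62 histone genes with a count, coloured by class. The dashed line is 5 times the background and the dotted line the background itself: Hist1h2ao stands highest at 94.2 times, while Hist1h1d, the longest model, stands at 3.65 times.

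The 5 members without a count in any library were Hist2h2aa1, Hist2h2aa2, Hist2h3b, Hist2h3c1 and Hist2h2bb. These are exactly the 5 members whose whole exonic length lies under exons of other annotated genes, and the 5 whose every 100-base window also occurs in another gene. Overlapping genes counted as other genes here, so these descriptions are not independent. Genes of at least 200 bases that lie wholly under exons on the opposite strand were at 0 in all libraries in 249 of 252 cases (98.8%), against 473 of 37738 genes with no exonic overlap (1.25%). Reads over such overlaps were thus assigned to neither gene, and the zeros of these 5 members set no upper limit on their RNA. A further 19 members, with 33.3% of the histone counts, had exons overlapped in part, among them Hist1h2ao, Hist1h2ap and Hist1h2ag, each with over 28% of its length under an antisense gene. Sequence was also shared with other genes, counted on either strand and with overlapping genes included. On that count 28 members shared at least 50% of their 100-base windows with another gene, and 6 shared none. For Hist2h2bb the only partners were Gm20628 and Gm42743, which overlap it. For Hist1h2ao and Hist1h2ap the shared part was 92.7% and 92.2%, so their counts may be split or lost in ways that depend on how multiply mapped reads were counted, which is not given in the sources used here.

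The level was concentrated in few genes. The 12 members with the highest mean CPM held 68.9% of all histone counts, and Hist1h2bc alone held 13.8%. By class, H2A held 30.2% of the counts, H2B 28.9%, H1 19.2%, H4 14.7% and H3 6.89%. Per kb of exon, which allows levels of different genes to be compared, Hist1h2ao was highest at 63.1 CPM per kb, followed by Hist1h2ap at 53.3, Hist1h2bc at 51.8, Hist1h2ag at 40.1 and Hist1h4i at 35.0. The median over the 67 members was 3.06 CPM per kb. For comparison, the replication-independent variant gene H2afz, whose mRNA is polyadenylated, stood at 502 CPM per kb and Slbp at 38.3.

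Among the linker histone genes, which encode the proteins that bind DNA between nucleosomes, Hist1h1c (chr13:23738808-23740367, plus strand) was the most abundant. Its level was 20.7, 40.4 and 33.9 CPM in controls 1 to 3 and 49.6, 70.3 and 32.6 CPM in fasted libraries 1 to 3. Fasted libraries 1 and 2 lay above every control and fasted 3 below 2 of them, so the groups overlapped. Hist1h1d (chr13:23553262-23560686, plus) was at 8.27, 14.8 and 14.6 CPM in controls and 25.2, 27.5 and 28.7 CPM in fasted libraries. All 3 fasted libraries were above all 3 controls, but the model of Hist1h1d is 7425 bases long and the background for that length made up 25.1% to 33.3% of its control counts and 23.7% to 32.7% of its fasted counts. Hist1h1b (chr13:21779883-21780625, minus), whose model ends at the stop codon and shares no 100-base window with any gene, was at 9.16, 15.96 and 15.7 CPM in controls and 14.5, 14.7 and 9.47 CPM in fasted libraries. Its lowest control and lowest fasted library lay side by side and the groups overlapped. Hist1h1a and Hist1h1e lay lower, at 4.83 and 2.66 CPM per kb.

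H2A genes encode a core histone that pairs with H2B. Hist1h2ao (chr13:21810465-21810944, plus) was at 12.5, 45.3 and 34.6 CPM in controls and 29.6, 26.6 and 33.0 CPM in fasted libraries. Hist1h2ap (chr13:21833026-21833507, minus) was at 9.32, 42.6 and 27.5 CPM in controls and 21.6, 24.4 and 28.8 CPM in fasted libraries. In both genes control 1 was the lowest of all 6 libraries and control 2 the highest, with the fasted libraries between them. Hist1h2ag (chr13:22042460-22042944, minus) was at 11.4, 27.7 and 21.9 CPM in controls and 18.8, 23.9 and 13.0 CPM in fasted libraries, again with control 1 lowest and control 2 highest.

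The other 3 H2A genes among the 12 have models that run past the stem-loop. Hist1h2ac (chr13:23681467-23683948, minus) was at 12.7, 17.5 and 17.3 CPM in controls and 18.7, 23.0 and 14.8 CPM in fasted libraries. Hist3h2a (chr11:58954685-58956830, plus) was at 11.8, 15.7 and 17.6 CPM in controls and 14.7, 17.9 and 15.8 CPM in fasted libraries. Hist1h2ae (chr13:23570517-23571220, minus) was at 8.36, 18.6 and 16.3 CPM in controls and 17.0, 15.5 and 11.9 CPM in fasted libraries. Control 1 was the lowest library in each, and the groups overlapped in all 3.

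Of the H2B genes, Hist1h2bc (chr13:23684199-23692908, plus) was at 26.1, 50.2 and 84.6 CPM in controls and 71.0, 83.4 and 43.8 CPM in fasted libraries. The spread within the controls was larger than the difference between the group means, with control 1 lowest and control 3 highest. Hist1h2bg (chr13:23571396-23572013, plus) was at 14.8, 19.4 and 15.6 CPM in controls and 16.5, 23.7 and 10.5 CPM in fasted libraries. Here the 2 fasted extremes enclosed every control.

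H3 genes were the least abundant class, and the one with the highest CPM was Hist1h3d (chr13:23575763-23577011, plus), at 8.66, 7.37 and 5.03 CPM in controls and 7.66, 5.93 and 9.54 CPM in fasted libraries. Control 1 was the highest control here, and the groups overlapped. Per kb of exon, Hist1h3d stood at 5.9 CPM, below Hist1h3i at 9.31 and Hist1h3e at 7.37. Hist1h4i (chr13:22040636-22041362, minus) was the highest H4 gene by CPM and per kb, at 19.7, 31.6 and 23.8 CPM in controls and 22.4, 32.5 and 22.8 CPM in fasted libraries, which overlapped almost fully.

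Next by CPM, which is not divided by length, came Hist1h4d and Hist2h2be, at 11.5 and 4.27 CPM per kb. Hist1h4d (chr13:23581598-23582735, plus), an H4 gene whose model runs 770 bases past its stem-loop, was at 6.81, 13.4 and 15.0 CPM in controls and 14.5, 14.3 and 14.8 CPM in fasted libraries, where control 1 alone lay apart. Hist2h2be (chr3:96221119-96223738, plus), an H2B gene that shares no 100-base window with any gene, was at 12.5, 10.3 and 11.1 CPM in controls and 9.38, 13.1 and 10.6 CPM in fasted libraries. Its level was steady across all 6 libraries and not low in control 1, and the 10 Hist2 genes together gave 17.0 ± 0.685 CPM in controls and 16.8 ± 2.95 CPM in fasted libraries (SD, n = 3 each). The 54 Hist1 genes, which held 90.6% of the histone counts, gave 212, 442 and 415 CPM in controls and 426, 502 and 366 CPM in fasted libraries, with control 1 again the lowest. Hist4h4 (chr6:136801553-136804415, minus), the only member on chromosome 6, was at 1.95, 3.3 and 4.05 CPM in controls and 5.7, 5.87 and 8.26 CPM in fasted libraries, of which the background for its length came to 43.2% to 46.2% and 34.5% to 55.8%.

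**Figure D2:**
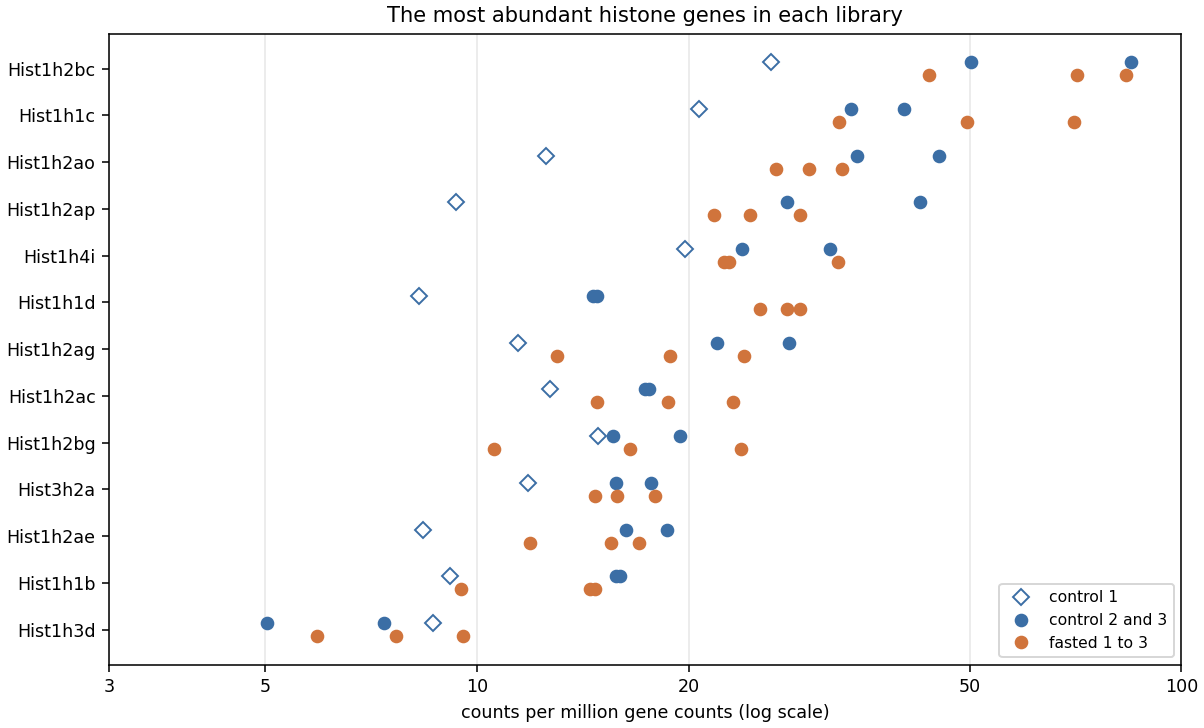
CPM (x axis, log scale) of the 12 most abundant histone genes and Hist1h3d, the H3 gene with the highest CPM, in each library: open diamonds control 1, blue circles controls 2 and 3, orange circles fasted 1 to 3. Control 1 is the lowest library for 11 of the 13 genes (not for Hist1h2bg, where fasted 3 is lower at 10.5 CPM, nor for Hist1h3d), and Hist1h1d is the only one of the 13 whose groups do not overlap.

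No histone gene was called different between fasted and control libraries. With edgeR's quasi-likelihood test over all 36508 genes that passed the filter, 0 of 56 members had a Benjamini-Hochberg adjusted p under 0.05, where 4.97% of all tested genes were called. At an unadjusted p under 0.05 there were 2 members, Hist1h1d (log2 fold change 0.66, SE 0.26, adjusted p = 0.11 with edgeR) and Hist1h2bm (-0.89, SE 0.43, adjusted p = 0.174). The median log2 fold change of the 56 members was -0.11, against 0.32 for all tested genes and -0.50 for those genes whose mean reached 5 times the background, and 19 of 56 members were above 0. The zero point of these values was set by a scaling that moves with the background: with scaling from library totals alone the median of all genes was 0.81 and that of the members 0.33, and the split of all calls went from 420 higher and 1393 lower to 4296 higher and 291 lower.

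In the fit limited to the 10659 genes that reached 5 times the background, 0.0% of genes were called and 0 of 30 members. One member had an unadjusted p under 0.05, Hist1h4h, whose edgeR log2 fold change was 1.23 (SE 0.38, adjusted p = 0.159). Hist1h4h, an H4 gene, was at 1.09, 2.62 and 2.09 CPM in controls and 3.91, 4.28 and 5.17 CPM in fasted libraries, with all 3 fasted libraries above all 3 controls. The median of the 30 members was 0.14, against 0.02 for all genes in that fit, and 20 of the 30 were above 0. Without control 1 the members' median was -0.03, with 14 of 30 above 0 and 0.03 for all genes, and without control 3 it was 0.40, with 24 of 30 above 0. Without fasted 2 it was 0.02, with 15 of 30 above 0. DESeq2, limited by the same background to 10927 genes, also called 0 of 30, where it called 4.65% of all genes; 3 members were under 0.05 before adjustment, and Hist1h4h came closest after it (DESeq2 adjusted p = 0.0564). Over all genes DESeq2 called 0 of the 49 members to which it gave an adjusted p, where it called 16.8% of such genes, and 5 members had an unadjusted p under 0.05.

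**Figure D3:**
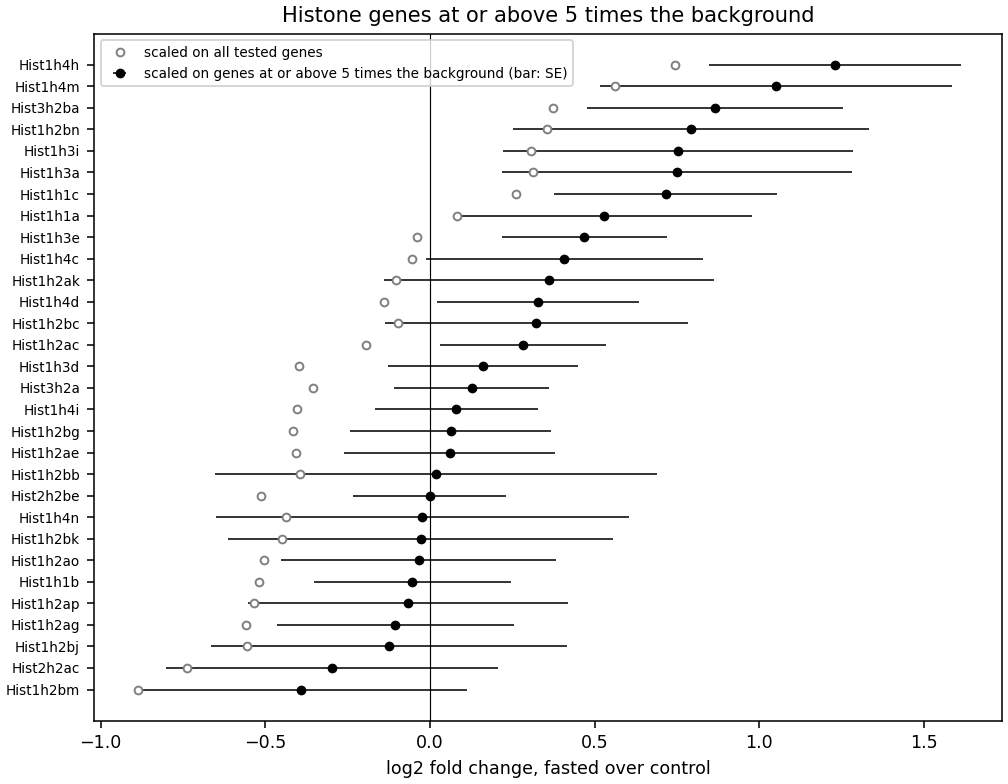
Log2 fold change of fasted over control (x axis) from edgeR for the 30 histone genes that reached 5 times the background (y axis). Filled points with bars (1 SE) are from the fit limited to such genes and open points from the fit over all tested genes; the filled points run from -0.39 (Hist1h2bm) to 1.23 (Hist1h4h), none was called, and every open point lies to the left of its filled point.

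For the most abundant members the estimates of the limited fit were smaller than their SE or close to it, apart from Hist1h1c. They were 0.32 (SE 0.46) for Hist1h2bc, 0.72 (SE 0.34) for Hist1h1c, -0.03 (SE 0.42) for Hist1h2ao, -0.07 (SE 0.49) for Hist1h2ap, 0.08 (SE 0.25) for Hist1h4i and -0.11 (SE 0.36) for Hist1h2ag. The others were 0.28 (SE 0.25) for Hist1h2ac, 0.06 (SE 0.30) for Hist1h2bg, 0.13 (SE 0.24) for Hist3h2a, 0.06 (SE 0.32) for Hist1h2ae, -0.05 (SE 0.30) for Hist1h1b and 0.16 (SE 0.29) for Hist1h3d. The direction of Hist1h2bc, Hist1h4i, Hist1h2ac, Hist1h2bg, Hist3h2a, Hist1h2ae and Hist1h3d flipped to below 0 in the fit over all genes, where the 13 named members ran from -0.56 (Hist1h2ag) to 0.66 (Hist1h1d).

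The classes differed in their medians in the limited fit, without a test of the difference. These medians are not given without control 1, the lowest library in every class sum. Without it the median of all 30 members went from 0.14 to -0.03. The 3 H1 genes in it had a median log2 fold change of 0.53, with 2 above 0, the 4 H3 genes a median of 0.61, with 4 above 0, and the 6 H4 genes a median of 0.37, with 5 above 0. The 8 H2A genes and the 9 H2B genes had medians of 0.01 and 0.02, with 4 and 5 above 0. Besides Hist1h4h, the estimates above 0.7 were those of Hist1h4m (1.05, SE 0.53), Hist3h2ba (0.87, SE 0.39), Hist1h2bn (0.79, SE 0.54), Hist1h3i (0.75, SE 0.53), Hist1h3a (0.75, SE 0.53) and Hist1h1c (0.72, SE 0.34), with edgeR adjusted p-values from 0.257 to 0.446. All of these but Hist1h1c had mean levels under 5 CPM in both groups. Hist3h2ba, an H2B gene, was at 1.92, 3.95 and 1.83 CPM in controls and 3.83, 5.76 and 4.1 CPM in fasted libraries. At the other end stood Hist1h2bm (-0.39, SE 0.50) and Hist2h2ac (-0.30, SE 0.50). In the fit over all genes the class medians were -0.01 for H1, -0.36 for H2A, -0.23 for H2B, -0.03 for H3 and 0.05 for H4.

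The calls turned on the scaling and on control 1. Scaled by library totals alone, Hist1h1d was called higher in fasted libraries by edgeR (log2 fold change 1.12, adjusted p = 0.0314), where 11.8% of all genes were called higher; over its 16 alternatives the adjusted p ran from 0.0291 to 0.32. With factors computed from the genes of the limited fit it was called as well (1.14, adjusted p = 0.0291), where 13.6% of all genes were called higher. Without control 1, Hist1h2ao (-0.86, edgeR adjusted p = 0.0307) and Hist1h2ap (-0.92, adjusted p = 0.0305) were called lower, where 2.24% of all genes were called lower; over their 16 alternatives the adjusted p ran up to 0.951 and 0.995.

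Separation of the groups was no more frequent among the members than in the background. In CPM, 8 of 56 members (14.3%) were higher in all fasted than in all control libraries, while 39.1% of all tested genes were, and 0 of 56 were lower throughout, against 4.4%. The 8 were Hist1h1d, Hist1h2be, Hist1h3e, Hist1h3f, Hist1h4h, Hist1h4j, Hist1h4k and Hist4h4. Among genes of the limited fit the higher members were 2 of 30, Hist1h3e and Hist1h4h, against 13.1% of genes, and 0 of 30 were lower, against 14.6%. Hist1h3e, an H3 gene, was at 5.03, 5.96 and 4.72 CPM in controls and 6.64, 7.9 and 6.72 CPM in fasted libraries. The other 6 lay under 5 times the background, and for Hist1h4j the background for its length came to 53.5% to 114% of its control counts and 39.5% to 110% of its fasted counts. After the scaling of the all-gene fit, 5 of 56 were higher throughout (Hist1h1d, Hist1h4h, Hist1h4j, Hist1h4k and Hist4h4; background 19.8%) and 0 of 56 lower (background 15.1%); among genes of the limited fit, 1 of 30 was higher (background 3.58%) and 0 of 30 lower (background 47.5%).

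Summed over all 67 members, histone mRNA took 245, 481 and 456 CPM in controls 1 to 3 and 465, 551 and 410 CPM in fasted libraries 1 to 3. The means were 394 ± 130 (SD, n = 3) and 475 ± 71.0 CPM (SD, n = 3), a difference of 81.5 CPM that was smaller than the SD of the controls (two-sided exact permutation test, p = 0.5; 0.1 is the smallest p that 3 against 3 libraries allow). Control 1 was the only library far from the rest, and without it the difference was 7.02 CPM. Multiplying the library totals by the factors of the all-gene fit turned the difference to -50.4 CPM, so no direction of the sum held under both scalings. In bulk RNA, a different number of cells in S phase and a different amount of histone mRNA per cell cannot be told apart.

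By class, H1 genes summed to 44.3, 81.8 and 73.6 CPM in controls and 99.1, 125 and 77.9 CPM in fasted libraries (exact permutation p = 0.2). H2A genes summed to 69.8, 178 and 145 CPM in controls and 129, 141 and 125 CPM in fasted libraries, with a difference of 0.79 CPM (exact permutation p = 1), and H2B genes to 72.5, 121 and 150 CPM against 138, 168 and 104 CPM (exact permutation p = 0.5). H3 genes summed to 20.0, 30.8 and 25.3 CPM in controls and 33.2, 37.6 and 32.7 CPM in fasted libraries (exact permutation p = 0.1), and H4 genes to 38.4, 69.0 and 62.1 CPM against 66.0, 78.5 and 70.1 CPM (exact permutation p = 0.2). H3 was the only class whose groups did not overlap, and its p, the smallest this design allows, was 0.3 after Benjamini-Hochberg adjustment over the 9 sums and ratios tested. Over only the H3 members that reached 5 times the background, the difference was 5.64 CPM in place of 9.15, with an exact permutation p of 0.2. Without control 1 the difference of H2B went from 22.3 to 1.29 CPM, that of H4 from 15.0 to 5.98, that of H1 from 34.2 to 23.1, that of H3 to 6.47 and that of H2A to -29.8. Scaled as in the all-gene fit, the differences of H2A, H2B, H3 and H4 turned negative, at -39.7, -14.7, -0.39 and -4.96 CPM, while that of H1 stayed positive at 9.33 CPM.

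**Figure D4:**
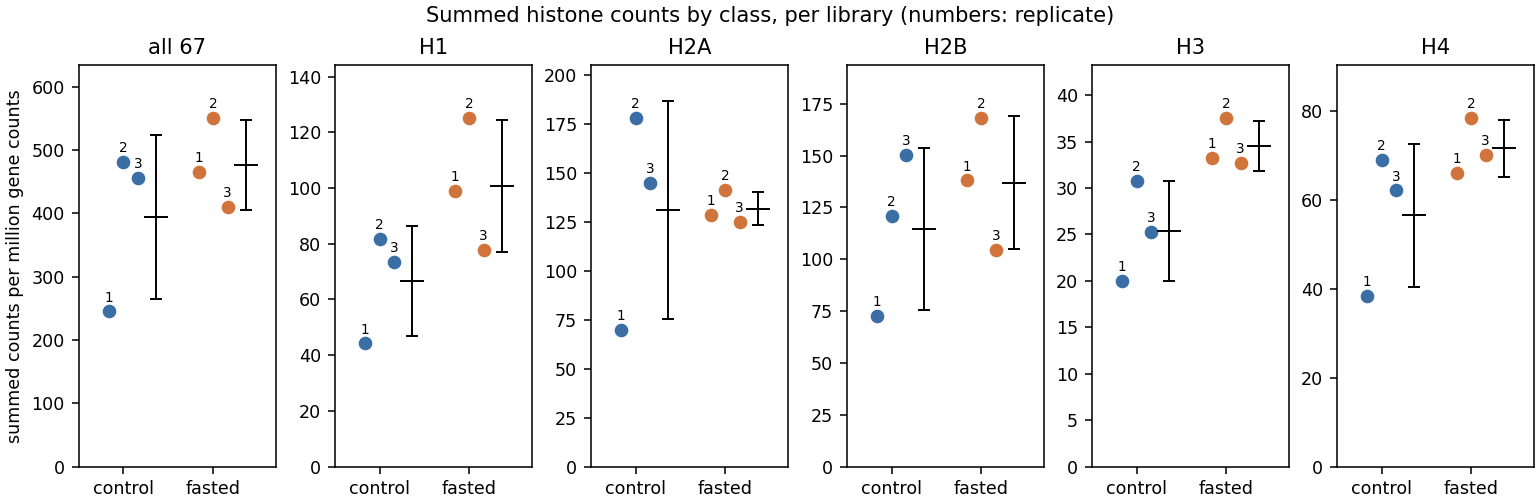
Summed CPM of the histone genes (y axis, from 0) in each library, for all 67 members and for each class; points are libraries with their replicate number and bars are mean ± SD of 3 libraries. Control 1 is the lowest library in every panel, and the groups are apart in the H3 panel only, with fasted libraries at 32.7 to 37.6 CPM and controls at 20.0 to 30.8.

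A ratio within a library does not depend on the scaling between libraries. The 23 DNA replication genes include genes of the replicative helicase, polymerase and nucleotide synthesis. They also include the cyclin genes Ccne1, Ccne2 and Ccna2, and E2f1, Cdt1 and Cdc6. Per 100 counts of these 23 genes there were 3.32, 7.08 and 7.71 histone counts in controls and 9.43, 10.5 and 7.5 in fasted libraries. Fasted 3 fell between controls 2 and 3, and the log2 difference of 0.68 had an exact permutation p of 0.2; without control 1 it was 0.295. Per 100 counts of 11 replication-independent histone genes there were 5.87, 9.47 and 8.06 histone counts in controls and 10.8, 10.7 and 11.8 in fasted libraries. All fasted libraries were higher in this ratio, and the log2 difference of 0.53 had an exact permutation p of 0.1 and an adjusted p of 0.3. The 11 genes themselves summed to 4177, 5077 and 5655 CPM in controls and 4315, 5148 and 3491 CPM in fasted libraries. H3f3b alone gave 1485 to 3057 CPM of these sums. In fasted 3, where the ratio was highest, the 11 genes had their lowest sum. Per 100 counts of 12 histone chaperone genes, whose proteins carry histones to DNA, there were 9.67, 20.6 and 20.7 in controls and 24.3, 26.8 and 21.1 in fasted libraries, again with no overlap (log2 difference 0.58, exact permutation p = 0.1, adjusted p = 0.3). The ratios were also taken with the background subtracted, or over only the members that reached 5 times the background. The log2 difference against the DNA replication genes was then 0.61 and 0.60, with an exact permutation p of 0.3 in both. Against the chaperones it was 0.52 and 0.50 with an exact permutation p of 0.3. Against the replication-independent histones it was 0.45 in both with an exact permutation p of 0.1.

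Other RNAs also differed between the libraries. The DNA replication genes themselves summed to 7368, 6792 and 5916 CPM in controls and 4932, 5236 and 5471 CPM in fasted libraries. The chaperone genes summed to 2203 to 2534 CPM in controls and 1912 to 2055 CPM in fasted libraries. Each ratio thus compares 2 sums that both differed between libraries. Control 1, with the lowest ratio in all 3 cases, also had the lowest sum of RNAs without a poly(A) tail. In it 7SK RNA (Rn7sk) was at 0.264 CPM, against 3.46 and 9.8 CPM in controls 2 and 3. In fasted libraries it was at 8.67, 21.5 and 6.45 CPM. Rmrp, Rpph1 and Terc, also in the sum, had at most 9 counts in any library. Not all of them were lowest in control 1: Rpph1 was at 0.165 CPM there and 0.038 in control 2. The sum over 6 such RNAs was 0.926, 14.7 and 23.5 CPM in controls and 15.3, 34.5 and 20.4 CPM in fasted libraries; its part in the histone values was not tested. Without control 1 the log2 differences against the replication-independent histones and the chaperones were 0.34 and 0.21. The granulocyte and monocyte markers were highest in controls 2 and 3, and their part in the histone values was not tested either.

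**Figure D5:**
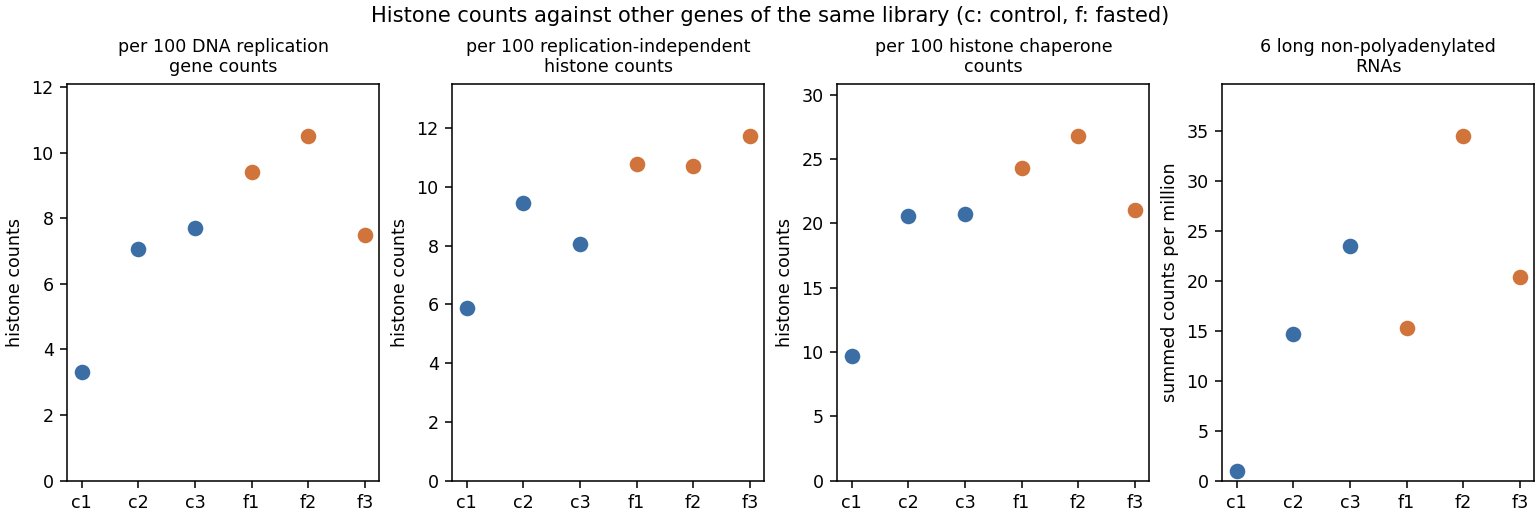
Histone counts per 100 counts of DNA replication genes, of replication-independent histone genes and of histone chaperones (first 3 panels, y axes from 0), and the summed CPM of 6 long RNAs without a poly(A) tail (last panel), in each library (c, control; f, fasted). Control 1 is the lowest point of every panel, at 3.32, 5.87 and 9.67 histone counts and 0.926 CPM.

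Members whose models carry a long 3′ end held most of the counts. The 31 members whose model runs more than 100 bases past the stop codon held 67.5% of the histone counts and summed to 183, 287 and 298 CPM in controls and 323, 392 and 277 CPM in fasted libraries. The 36 members whose model ends within 100 bases, Hist1h2ao, Hist1h2ap and Hist1h2ag among them, summed to 61.8, 194 and 158 CPM in controls and 142, 159 and 133 CPM in fasted libraries. Control 1 was thus the lowest library for both kinds. Per kb of exon the medians were 2.67 CPM for the long models and 3.39 for the short ones. In the limited fit the 13 long models tested had a median log2 fold change of 0.28, with 12 above 0, and the 17 short ones had a median of -0.02, with 8 above 0, where all genes in that fit had a median of 0.02; in the fit over all genes the medians were -0.09 and -0.12. No member of either kind was called, and the difference between the 2 kinds was not tested. Nor are the medians of the 2 kinds given without control 1.

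H2A and H2B genes are known to sit head to head in the histone clusters, and 12 such pairs were found, with 175 to 305 bases between their annotated starts. In 7 of the 12 the partners were within 3-fold of each other per kb, at most 2.14-fold apart, and in the other 5 they were further apart. Some of the 7 had both partners under 5 times the background, so their likeness is one of values near it. They were Hist1h2bl with Hist1h2ai (4.52 and 3.48 times), Hist1h2bf with Hist1h2ad (2.33 and 3.57), Hist1h2an with Hist1h2bp (1.74 and 3.67) and Hist1h2ba with Hist1h2aa (0.382 and 0.251). Hist1h2ac stood at 6.98 CPM per kb and Hist1h2bc, 250 bases away, at 51.8. Hist1h2ag stood at 40.1 and Hist1h2bj at 11.1, while Hist1h2ae and Hist1h2bg, the closest pair at 175 bases, were alike at 20.7 and 27.1 CPM per kb. The widest gaps were those of Hist1h2ao, at 63.1 against 0.438 for Hist1h2bq, and of Hist1h2ap, at 53.3 against 0.247 for Hist1h2br; Hist1h2bq and Hist1h2br lay below the background, at 0.612 and 0.353 times, and shared 94.8% and 86.4% of their 100-base windows with other genes. They are also the 2 members whose identifiers matched the annotation only under another version.

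How many of the genes that make and process histone mRNA were called turned on the method, and none was called in edgeR's limited fit. Of 14 genes for histone gene transcription, 3′ end processing and decay, edgeR called 0 higher and 3 lower over all genes: Slbp, the stem-loop binding protein (log2 fold change -0.88), Cpsf3, the nuclease that cuts the 3′ end (-0.79), and Cdk2, the S phase kinase (-0.91). In that fit 3.82% of all genes were called lower. Without control 1, 0 of the 14 were called and their median was -0.48. Slbp was at 320, 246 and 220 CPM in controls and 192, 193 and 225 CPM in fasted libraries, which overlapped between control 3 and fasted 3. With library totals alone none of the 14 was called lower and Lsm11, a part of the U7 particle, was called higher, where 11.8% of all genes were. Lsm11 stood at 2.55 times the background, which was itself higher in every fasted library. In the limited fit, where 0.0% of all genes were called, 0 of 11 were, with a median of -0.22 and 10 of 11 below 0. Over all genes with RLE factors, edgeR called 6 of the 14 lower, where 2672 of 36508 genes were. DESeq2 over all genes called 10 of the 14 lower and 0 higher. It called 16.8% of all genes with an adjusted p, in either direction.

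The remaining lists also had calls in edgeR's fit over all genes and none in the limited fit. The fit over all genes called 3.82% of all genes lower, and the limited fit called 0.0%. In the fit over all genes, those whose mean reached 5 times the background had a median log2 fold change of -0.50. Of 10 replication-independent histone genes tested, 0 were called higher and 3 lower over all genes (H2afx, H2afj and H2afy), with a median of -0.67, and 0 of 9 in the limited fit, with a median of -0.23. Of 12 chaperone genes, 0 were called higher and 3 lower (Asf1b, Rbbp4 and Rbbp7), with a median of -0.69, and 0 of 11 in the limited fit, with a median of -0.22. Of 23 DNA replication genes, 0 were called higher and 13 lower, with a median of -0.84. With library totals alone 4 were called lower (Mcm3, Mcm4, Mcm5 and Mcm6, subunits of the replicative helicase), where 291 of 36508 genes were. In the limited fit 0 of 23 were called, with a median of -0.30 and 21 of 23 below 0. Without control 1, where 2.24% of all genes were called lower, the fit over all genes called 2 replication-independent histone genes lower (H2afj and H2afy; median -0.64), 0 chaperones (median -0.55) and 7 DNA replication genes (median -0.69). With RLE factors edgeR called 4 of 10, 5 of 12 and 16 of 23 genes of these lists lower, where 2672 of 36508 genes were. DESeq2 over all genes called lower 6 of 11 replication-independent histone genes, 9 of 12 chaperones and 21 of 23 DNA replication genes. It called 16.8% of all genes with an adjusted p, in either direction. The histone members had edgeR medians of -0.11 in the fit over all genes and 0.14 in the limited one, and of -0.39 and -0.03 without control 1. The difference between the lists was tested only through the within-library ratios.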

How the data were processed

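Poly(A)-selected RNA of 6 libraries was sequenced, and the authors deposited raw counts per gene with exonic lengths. The submitters' processing notes name HISAT2 2.2.1, featureCounts 2.0.1 and GRCm38; the annotation release and the settings for strand and multiply mapped reads are not given in the sources used here. Of 55487 identifiers, 54435 matched GENCODE M21 with their version and 792 under another version; of the 67 members, 65 and 2 did, and all 67 had the deposited length in M21. Of its rows, 0 lacked a gene identifier. Members and gene lists were chosen with earlier results of these data known.

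Groups came from the treatment labels. The counts were tested with edgeR 4.0.16 in R 4.3.3 (filterByExpr, TMM factors, robust glmQLFit, group as the only term), with calls at a Benjamini-Hochberg adjusted p under 0.05, over all 36508 genes left by the filter and, refitted, over the 10659 at or above 5 times the receptor gene background by their mean over 6 libraries. The SE was the log2 fold change divided by the square root of F. CPM used library totals without TMM factors. Sums and log2 ratios were compared by two-sided exact permutation tests (scipy 1.17.1), 9 in all. Genes given in every library were the 12 members with the highest mean CPM and the highest of each class; Hist1h4d, Hist2h2be, Hist4h4, Hist3h2ba, Hist1h4h, Hist1h3e, Slbp and Rn7sk were added after their values were seen. Stem-loops and shared 100-base windows were read from M21 transcripts. The scripts were tested on simulated data. Alternatives were DESeq2 1.42.0, limma-voom (limma 3.58.1), RLE factors, library totals alone, factors from genes above the background, background subtraction, other filters and limits, a replicate block and leaving out each library. Chosen after seeing the data were sums relative to the counts of genes above the background, sums scaled by TMM factors, and members sharing no 100-base window. Total counts ranged from 12797144 to 30246110 per library.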

Additional observations from a re-analysis of the deposited data

How the results depend on the processing

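The count of 0 called histone genes over all tested genes held with DESeq2, limma-voom, RLE factors, both other filters, background subtraction and non-robust settings. It became 1 when library totals alone set the scale and 1 when the genes of the limited fit did (Hist1h1d in both), and 0 to 2 over the libraries left out in turn (Hist1h2ao and Hist1h2ap without control 1); the cause was not tested. In the limited fit it was 0 under every alternative run.

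The summed histone share differed by -50.4 CPM after scaling by the TMM factors, and by 7.02 (without control 1) to 125 CPM (without control 2) over the libraries left out. It was 121 counts-per-million of the counts in the genes of the limited fit and 48.6 CPM over the 30 members in that fit. Under the same scaling H2A, H2B, H3 and H4 differed by -39.7, -14.7, -0.39 and -4.96 CPM. H2A also turned negative in members at or above 5 times the background (-0.0115), without control 1 (-29.8) and without fasted 2 (-4.04), and was highest without control 2 (24.4). The 6 members that share no 100-base window summed to 42.7 CPM in controls and 46.2 in fasted libraries.

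Scaled by library totals alone, or by factors computed from the genes of the limited fit, 7 log2 fold changes turned positive: Hist1h2bc (0.31 and 0.32), Hist1h4i (0.052 and 0.080), Hist1h2ac (0.26 and 0.28), Hist1h2bg (0.031 and 0.062), Hist3h2a (0.10 and 0.13), Hist1h2ae (0.041 and 0.060) and Hist1h3d (0.13 and 0.16). Hist1h2bc was also positive with background subtracted (0.13). Over the libraries left out, Hist1h2bc ran from -0.49 to 0.28 (positive without control 3 and, at 0.15, without fasted 3), Hist1h1c from -0.24 (without fasted 2) to 0.53, and Hist1h2ap from -0.92 to 0.0042 (without control 2). Of the values in this paragraph only the -0.92 was called by edgeR.

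With the replicate number as a block, edgeR called 0 histone genes in both fits and 146 of all genes in place of 1813. The mean differences of the share and of the ratio to DNA replication genes stay at 81.5 CPM and 0.68 by arithmetic. Their lack of change is therefore no test of the block. Correlations of same-numbered deviations were -0.16, 0.13 and -0.28, and those of differently numbered ones ran from -0.13 to 0.27. Deviations from means of 3 libraries cannot decide whether the numbers pair the libraries, and the labels do not say. Precision is limited by 3 libraries a group and, for the 37 members under 5 times the background, by that background.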
